A study of Mus musculus with 2 samples.

Results

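The Fc gamma receptor genes are described here across the immune cells of tumours from mice treated with an antibody. The 6 members were taken by symbol out of the 27998 genes in the files, and all 6 were found in both libraries. They are the activating receptors Fcgr1, Fcgr3 and Fcgr4, their shared signalling chain Fcer1g, the inhibitory receptor Fcgr2b, and Fcgrt, which encodes the neonatal Fc receptor FcRn. The measurements are their levels in each cell type and the balance of activating to inhibitory receptor transcripts.

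The series holds 2 single-cell RNA libraries of CD45+ cells sorted from subcutaneous MC38-GFP+ tumours, a colon tumour line of the mouse marked with green fluorescent protein. All mice were C57BL/6, received 50000 tumour cells and were treated on days 12, 15, 18 and 22 with 100 ug of anti-PD-1 antibody, a dose called sub-optimal in the labels. Each group is 1 library: one is labelled responder and the other non-responder to that treatment. No untreated group was used here, and neither the age of the mice nor the number of mice per library was given, so a library may pool animals or be 1 animal.

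Fc gamma receptors bind the constant part of IgG antibodies. Fcgr1, Fcgr3 and Fcgr4 encode ligand-binding chains that pass their signal through the ITAM motif of the gamma chain, the product of Fcer1g, to kinases such as Syk, and so drive phagocytosis and cytokine release. Fcgr2b carries an inhibitory ITIM motif and recruits the phosphatase SHIP1, so the ratio of activating to inhibitory receptors sets how readily a myeloid cell answers IgG. Mouse NK cells are known for Fcgr3 as their Fc gamma receptor. FcRn binds IgG at acid pH in endosomes and protects it from breakdown.

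On GRCm38 in the GENCODE M21 annotation, 4 of the members lie within 276 kb of chromosome 1. Fcgr2b spans 170958617 to 170976547 on the minus strand, Fcgr4 spans 171018920 to 171029761 on the plus strand, and Fcgr3 spans 171051174 to 171064935 on the minus strand. Fcer1g spans 171229572 to 171234365 on the minus strand. Fcgr1 lies on chromosome 3, 96282909 to 96293969, and Fcgrt on chromosome 7, 45092990 to 45103851, both on the minus strand. Because Fcgr1, Fcgr2b, Fcgr3 and Fcgr4 are paralogs, the last 600 bases of the members' protein-coding transcripts were searched in 50-base stretches against the transcripts of all other genes. Fcgr1, Fcgr3, Fcgr4, Fcer1g and Fcgrt had 0 shared stretches, and 5.10% of those of Fcgr2b were also found in Fcgr3. Fcgr2b overlaps the antisense gene Gm38204, which the files also count. Whether reads were assigned by strand was not stated in the labels.

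The non-responder library held 32032569 UMIs (unique molecular identifiers, each standing for 1 captured transcript) and 2565 cells after filtering. The responder library held 45866561 UMIs and 4376 cells, and 14 cell barcodes occurred in both. Cells were clustered without the 6 members and 13 further Fc receptor genes, so that they did not define the clusters. The monocyte/macrophage-like class made up 2356 and 4108 cells, 91.9% and 93.9% of the libraries. The libraries barely mixed within it. Clusters 0, 6, 7, 9 and 10 were mostly non-responder cells and clusters 1, 2, 3, 4, 5 and 8 mostly responder cells, so such a cluster and its library cannot be told apart. All 14 macrophage markers had UMIs in the class in both libraries, and their summed level was 48619 CPM (UMIs of a gene scaled to a common total over the cells named) in the non-responder and 49233 CPM in the responder library. Ptprc, which encodes CD45, was at 129.96 and 179.7 CPM in the class. With 1 library per group there is no replicate check and no test, and the 95% intervals in brackets cover counting error only.

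Among the members, the libraries differed most in Fcgr4, the mouse ortholog of human CD16A, an activating receptor of monocytes and macrophages. In monocyte/macrophage-like cells its level was 252 CPM [247-258] in the non-responder library and 1169 CPM [1159-1179] in the responder library. That is 4.63-fold higher, a log2 ratio of 2.21 [2.18-2.25]. By this ratio it ranked 76 among the 10854 genes with at least 50 UMIs in the class. Fcgr4 was the 1 member of 6 past 2-fold, where 3.46% of all genes measured were that much higher in the responder library. With the clusters that hold cells of both libraries weighted equally, the log2 ratio of Fcgr4 was 0.92 and 0 members were past 2-fold. None of the members was 2-fold or more lower in the class, against 4.39% of all genes. Those shares are 376 genes higher and 476 lower, and with TMM scaling of the class sums the split turned to 474 higher and 380 lower. The median log2 ratio of the 6 members was 0.38 and that of all genes measured -0.09.

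The other activating receptors differed less. Fcgr1, which encodes the high-affinity receptor CD64, was at 526 CPM [517-534] in the non-responder and 644 CPM [636-651] in the responder library, a log2 ratio of 0.29 [0.26-0.32]. Fcgr3, which encodes a low-affinity activating receptor, was at 1040.4 CPM [1029-1052] and 1067 CPM [1057-1077], a log2 ratio of 0.04 [0.02-0.06]. Fcer1g, the signalling chain, was at 5594 and 7700.1 CPM, a log2 ratio of 0.46 [0.45-0.47].

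Fcgr2b, the inhibitory receptor, was at 539.6 CPM [531-548] in the non-responder library and 479 CPM [473-486] in the responder library, a log2 ratio of -0.17 [-0.20 to -0.14]. Fcgrt was at 74.5 CPM [71.4-77.7] and 114 CPM [111-118], a log2 ratio of 0.62 [0.55-0.69]. B2m, the light chain that FcRn needs to reach the endosome, was at 9356 and 12342 CPM, a log2 ratio of 0.40. Of the members, 5 were higher and 1 lower in the responder library, except that Fcgr1 (-0.46) and Fcgr3 (-0.14) were lower too when the clusters with cells of both libraries were weighted equally. Of all 10854 genes measured, 4399 were higher and 6455 lower by any amount. No direction of a member changed when the class sums were scaled by TMM. That scaling adds 0.12 to every log2 ratio and moves the median of all genes from -0.09 to 0.03, so the split of all genes depends on it.

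**Figure D1:**
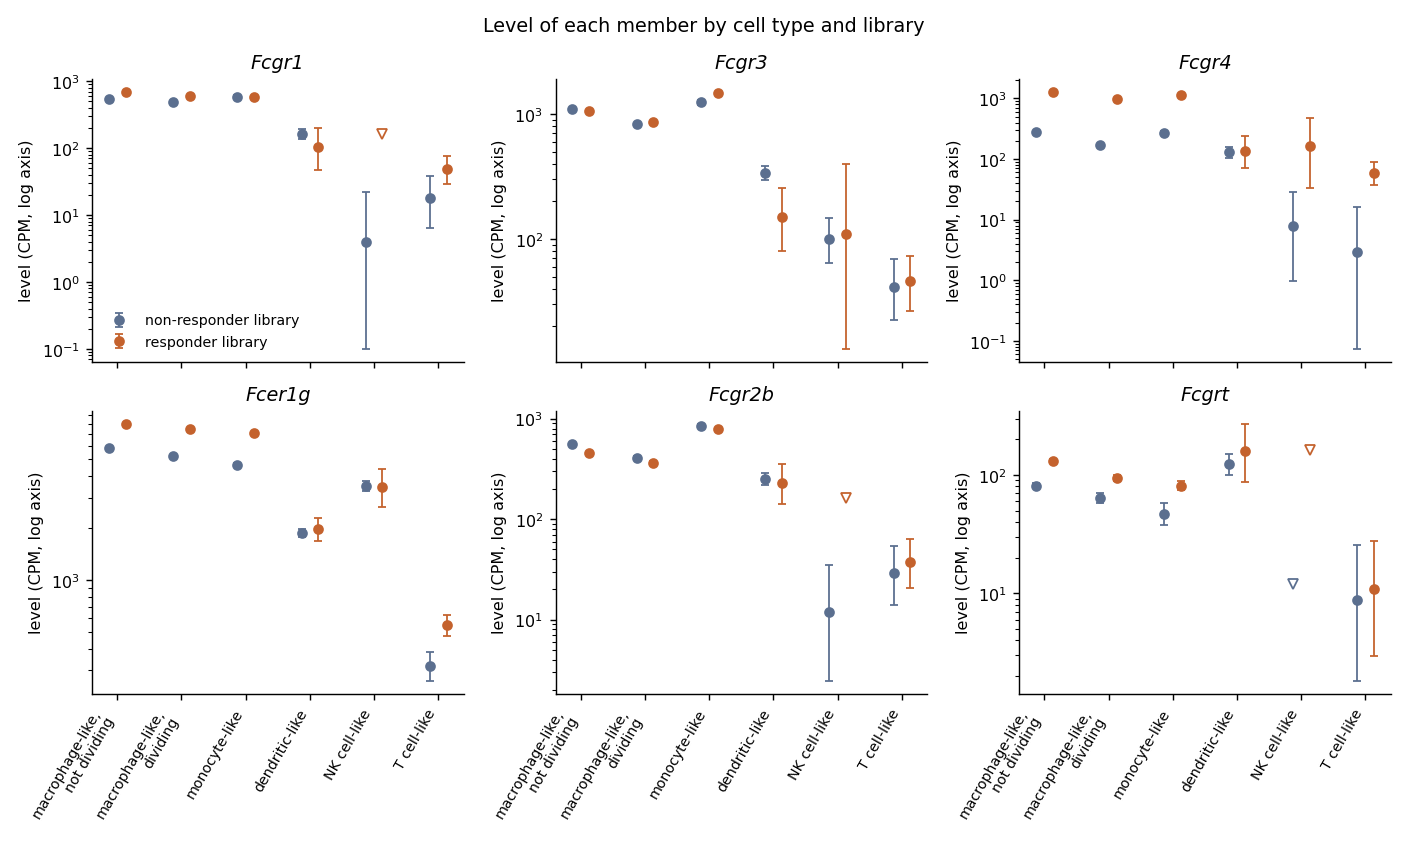
Level of each member in CPM (log axis) in 6 cell types, as points for the non-responder (blue) and responder (orange) library with exact Poisson 95% intervals; open triangles mark the level that 3 UMIs would give where no UMI was found. Fcgr4 was higher in the responder library in all 3 macrophage-like and monocyte-like states, and NK cell-like cells had Fcer1g with little Fcgr1 or Fcgr2b.

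The difference in Fcgr4 was also seen in the share of cells. With every cell thinned to 3000 UMIs, which left out 2 non-responder and 70 responder cells of the class, 46.6% [44.6-48.7] of the non-responder and 91.5% [90.6-92.4] of the responder cells had a Fcgr4 UMI. At full depth the shares were 79.6% and 98.7%. T cell-like cells, which should lack the receptor, had a Fcgr4 UMI in 0 of 60 non-responder cells, which allows a share of up to 5% when 0 is read as at most 3 cells, and in 15.3% [7.88-25.7] of 72 responder cells. Their median depths were 4910 and 3685 UMIs, against 11931.5 and 10104 in the class. So the class stood above that background in both libraries, and the background itself was higher in the responder library.

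The remaining members were spread more evenly. A Fcgr1 UMI was found in 71.2% [69.4-73.1] of the thinned non-responder and 82.0% [80.8-83.2] of the responder cells. For Fcgr3 the shares were 91.2% and 92.4%. Fcgr2b was found in 72.9% [71.1-74.7] and 69.8% [68.4-71.2], and Fcgrt in 19.0% [17.4-20.6] and 28.3% [26.9-29.7]. Fcer1g was found in all 2354 thinned non-responder cells and in 4037 of 4038 responder cells. Without thinning the shares were 93.5% and 97.0% for Fcgr1, 99.1% and 99.2% for Fcgr3, 95.4% and 93.5% for Fcgr2b, and 50.1% and 61.0% for Fcgrt.

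**Figure D2:**
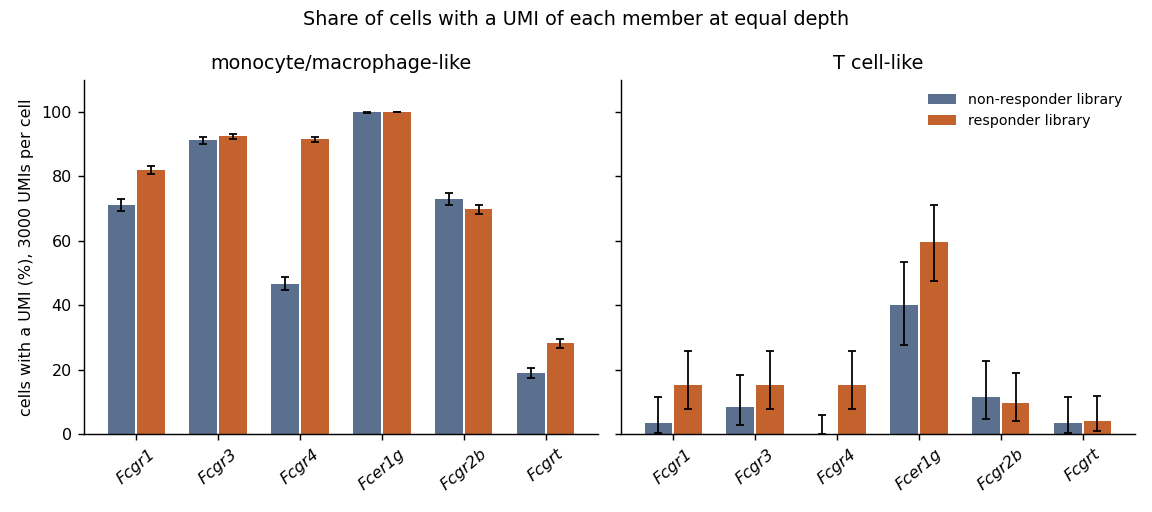
Percent of cells with at least 1 UMI of each member after thinning every cell to 3000 UMIs, in monocyte/macrophage-like cells (left) and in T cell-like cells (right), with exact Clopper-Pearson 95% intervals. Fcgr4 is the member with the widest gap on the left, 46.6% against 91.5%.

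UMIs of both arms were often found in the same cell. After thinning, 71.6% of the non-responder and 69.7% of the responder cells of the class had UMIs of at least 1 activating receptor and of Fcgr2b, and at full depth 95.3% and 93.5%. The same was found in 1.67% of the 60 and 2.78% of the 72 thinned T cell-like cells, which had a Fcgr2b UMI in 11.7% and 9.72%. Activating UMIs without Fcgr2b were found in 26.2% [24.4-28.0] and 30.1% [28.7-31.6] of the thinned cells of the class. In the class, Fcgr2b alone was found in 32 non-responder cells and 5 responder cells.

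The activating to inhibitory balance was taken as the UMIs of Fcgr1, Fcgr3 and Fcgr4 together per UMI of Fcgr2b. Counts of a 3' assay do not scale with transcript length, but capture can differ between genes, so the change of this ratio across cells is read and not its absolute size. It was 3.37 [3.31-3.43] in the non-responder and 6.01 [5.92-6.10] in the responder library, 1.78-fold higher, a log2 ratio of 0.83 [0.80-0.87]. Per cell, the activating UMIs were 22.7 and 30.1 and the Fcgr2b UMIs 6.72 and 5.003.

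Most of that gap lay in Fcgr4. It supplied 13.9% of the activating UMIs in the non-responder and 40.6% in the responder library, while the part of Fcgr3 was 57.2% and 37.1% and that of Fcgr1 28.9% and 22.3%. Per Fcgr2b UMI there were 0.468 and 2.44 UMIs of Fcgr4, 0.974 and 1.34 of Fcgr1, and 1.93 and 2.23 of Fcgr3. With Fcgr3 alone over Fcgr2b, the log2 ratio of the balance was 0.21, and with Fcgr1 left out of the sum it was 0.96.

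The balance was higher in the responder library in each of the 3 states of the class. In macrophage-like cells that were not dividing it was 3.42 [3.35-3.49] and 6.59 [6.46-6.73]. In dividing cells it was 3.63 [3.49-3.78] and 6.64 [6.44-6.86]. Monocyte-like cells, which carried Ly6c2, Plac8 and other monocyte markers, had the lowest values of the 3 states in both libraries, 2.48 [2.33-2.63] and 4.05 [3.93-4.18]. Most of that state was a different cluster in each library. Cluster 10 supplied 188 of its 213 non-responder cells, and cluster 4 supplied 664 of its 716 responder cells. Inside cluster 10 the balance was 2.34 in the non-responder and 2.69 in the responder cells. Inside cluster 4 it was 3.95 and 4.11.

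The low balance of monocyte-like cells went with Fcgr2b, which was at 846 CPM there in the non-responder library against 563 in the macrophage-like cells that were not dividing. In the responder library the same levels were 792 and 457 CPM. Fcgr3 was also highest in the monocyte-like state, at 1238 CPM in the non-responder and 1472 CPM in the responder library. The clusters of this state differed in the responder library. Cluster 4 had 1514 CPM of Fcgr3 and 806 CPM of Fcgr2b there, and the 52 cells of cluster 10 had 808 and 572 CPM. Fcgr4 differed between the libraries in every state. It went from 269 to 1155 CPM in monocyte-like cells, from 168 to 974 CPM in dividing cells and from 284 to 1267 CPM in the remaining macrophage-like cells. The monocyte-like values set mostly cluster 10 of the non-responder library against cluster 4 of the responder library. Inside cluster 10 Fcgr4 was at 242 and 337 CPM, and inside cluster 4 at 481 and 1206 CPM.

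The balance was higher in deeper cells, but the libraries stayed apart in each range of depth. For cells under 8000 UMIs it was 3.03 in the non-responder and 5.15 in the responder library, and for cells of 8000 to 12000 UMIs 3.16 and 6.04. For cells of more UMIs it was 3.54 and 6.35.

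Across clusters with at least 20 cells of a library, the balance ran from 2.34 in the non-responder cells of cluster 10 to 8.19 [7.85-8.55] in the responder cells of cluster 3. Cluster 10 was monocyte-like and led with Retnla, S100a8 and Chil3. Cluster 3 had the interferon-inducible genes Gbp2b and Cxcl9 among its 10 leading genes, beside Cd300e, Clec4b1, Siglece and others. Next below it came cluster 8, which led with S phase genes of the Mcm family, at 7.22, and cluster 1, which led with Ccl5, Ccl8 and Ifit3, at 7.09. Both were of the responder library, and their intervals overlapped. In the non-responder library the highest balance was 4.84 [4.58-5.12], in cluster 9, which led with the interferon-inducible genes Ifit3, Rsad2 and Cxcl10. The 5 highest values were all of responder cells and the 5 lowest were of clusters 10 and 6 in both libraries and cluster 0.

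Cluster 6, which led with Mmp12, Hmox1 and Gpnmb, had a low balance whichever library its cells came from, 2.60 [2.48-2.72] in 423 non-responder cells and 2.46 [2.06-2.94] in 35 responder cells. Cluster 0, the largest of the non-responder library, led with Fcrls, Pf4 and Mrc1 and had a balance of 3.36 [3.27-3.45]. Its Fcgr4 level was 255 CPM, against 1478 CPM in cluster 1, the largest of the responder library.

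**Figure D3:**
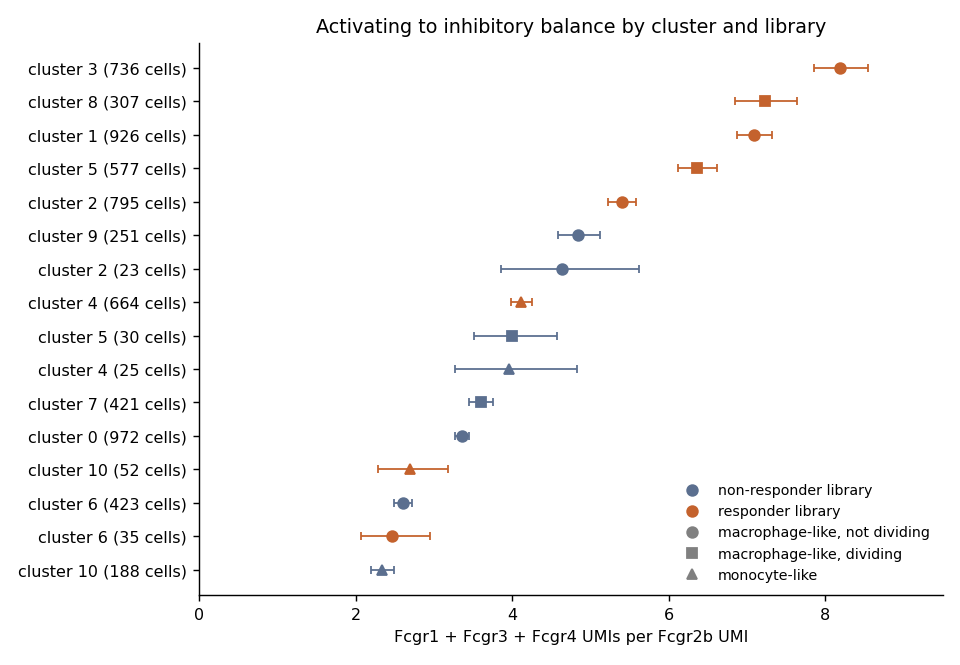
Activating to inhibitory balance (UMIs of Fcgr1, Fcgr3 and Fcgr4 per UMI of Fcgr2b) of each cluster and library with at least 20 cells, ordered from low to high, with intervals from the exact binomial 95% interval of the activating share. The 5 highest values are of responder cells, and cluster 6 and cluster 10 sit at the bottom in both libraries.

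Fcgr4 and Fcgr1 varied together over the clusters. Among the 8 clusters of each library, Pearson's r of log2(CPM + 10) between these genes was 0.85 in the non-responder and 0.85 in the responder library. Between Fcgr4 and Fcer1g it was 0.59 and 0.95, and between Fcgr4 and Fcgr2b 0.24 and -0.33. These are descriptions over sums that share a library, with no test, and some sums are of few cells. The highest Fcgr4 levels of the non-responder library, 584, 571 and 481 CPM, were of clusters 2, 5 and 4. Those held 23, 30 and 25 cells of that library. In the non-responder library the interferon-led cluster 9 had 942 CPM of Fcgr1 and 451 CPM of Fcgr4, and cluster 7, a dividing cluster, had 450.2 and 139 CPM. In the responder library, cluster 1 had the highest level of both, 803 CPM of Fcgr1 and 1478 CPM of Fcgr4. Clusters 6 and 10, with 35 and 52 cells there, had the lowest.

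Because Fcgr1 and Fcgr4 varied together over the clusters of each library, the 250 bases before their start sites are shown. Those of Fcgr3 stand beside them, all as RefSeq gives them for GRCm38.p6. Between the libraries inside the same cluster, Fcgr1 and Fcgr4 went in opposite directions, as given below. Capitals mark matches on either strand to TTCNNNGAA, the gamma-activated site (GAS) of interferon-responsive genes, to GAAANNGAA, a core of the interferon-stimulated response element (ISRE), and to GAGGAA, a core of sites bound by PU.1, the myeloid factor encoded by Spi1. In the window of Fcgr1 (chr3:96293970-96294219, minus strand) the matches are to GAS, 109 to 101 bases before the start, and to the PU.1 core on the other strand, 55 to 50 bases before it. In that of Fcgr4 (chr1:171018676-171018925, plus strand) they are to the ISRE core, 73 to 65 bases before the start, and to the PU.1 core on the other strand, 22 to 17 bases before it. The window of Fcgr3 (chr1:171059404-171059653, minus strand) has the PU.1 core on the other strand in its last 6 bases. This window lies inside the span that GENCODE gives for Fcgr3, which reaches 171064935, and 27 of its bases lie in GENCODE exons. RefSeq also gives another start of Fcgr3, for which the match lies 15 to 10 bases before it.
Fcgr1: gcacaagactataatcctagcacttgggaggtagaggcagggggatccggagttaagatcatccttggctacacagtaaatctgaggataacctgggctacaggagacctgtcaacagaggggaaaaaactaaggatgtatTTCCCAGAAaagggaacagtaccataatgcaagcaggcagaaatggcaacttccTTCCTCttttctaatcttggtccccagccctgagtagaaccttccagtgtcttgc
Fcgr4: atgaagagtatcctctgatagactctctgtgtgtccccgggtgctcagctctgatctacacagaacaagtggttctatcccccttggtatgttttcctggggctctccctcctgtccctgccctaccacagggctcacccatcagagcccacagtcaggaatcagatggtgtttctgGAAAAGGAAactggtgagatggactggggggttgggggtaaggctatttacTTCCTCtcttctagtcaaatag
Fcgr3: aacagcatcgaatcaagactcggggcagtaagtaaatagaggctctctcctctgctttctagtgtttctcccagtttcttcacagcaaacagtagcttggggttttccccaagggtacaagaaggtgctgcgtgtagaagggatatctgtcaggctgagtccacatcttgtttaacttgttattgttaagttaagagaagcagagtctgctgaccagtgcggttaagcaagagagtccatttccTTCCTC

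No match overlapped another in these windows, and the same windows of Fcer1g, Fcgr2b and Fcgrt held no match to the 3 patterns. Of the Fcgr2b window 203 bases lie in GENCODE exons, so it is mostly annotated as exon and is not shown. Of 27025 promoters of that length, 7.18% hold GAS, 7.16% the ISRE core and 23.1% the PU.1 core, so a match is a description of the letters and not a bound site. Factors known to act on Fc receptor genes were themselves measured. Spi1 was at 47.4 CPM in the non-responder and 141 CPM in the responder library, a log2 ratio of 1.57. It was past 2-fold, and Irf8, Cebpa, Cebpb and Stat6 were not.

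When the libraries were compared inside the same cluster, part of the picture changed. Clusters 2, 4, 5, 6 and 10 each had at least 20 cells of both libraries, though the smaller side held 23 to 52 cells. Fcgr4 was higher in the responder cells in 5 of 5, with log2 ratios of 0.47 to 1.39 and a mean of 0.92, all intervals above 0. In cluster 6 it was at 199.97 and 523 CPM, and in cluster 4 at 481 and 1206 CPM. Fcer1g was also higher in 5 of 5, by 0.13 to 0.59.

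Fcgr1 went the other way. It was lower in the responder cells in 5 of 5 clusters, with log2 ratios of -0.77 to -0.11, a mean of -0.46 and 4 intervals below 0, while its ratio over the whole class was 0.29. In cluster 5 Fcgr1 was at 1018 CPM in 30 non-responder cells and 596 CPM in 577 responder cells. Fcgr3 and Fcgr2b were each higher in the responder cells in 2 of 5 and lower in 3. Spi1 was higher in 5 of 5, with a mean of 1.13.

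The mean log2 ratio of the balance over these 5 clusters was 0.21, against 0.83 in the class. In cluster 5 the balance was 4.0 [3.51-4.56] in the non-responder and 6.36 [6.11-6.61] in the responder cells, with intervals apart. In clusters 2, 4, 6 and 10 the intervals of the libraries overlapped, and in cluster 6 the value of the responder cells was the lower one. The count of members past 2-fold by the mean over these clusters was 0.

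**Figure D4:**
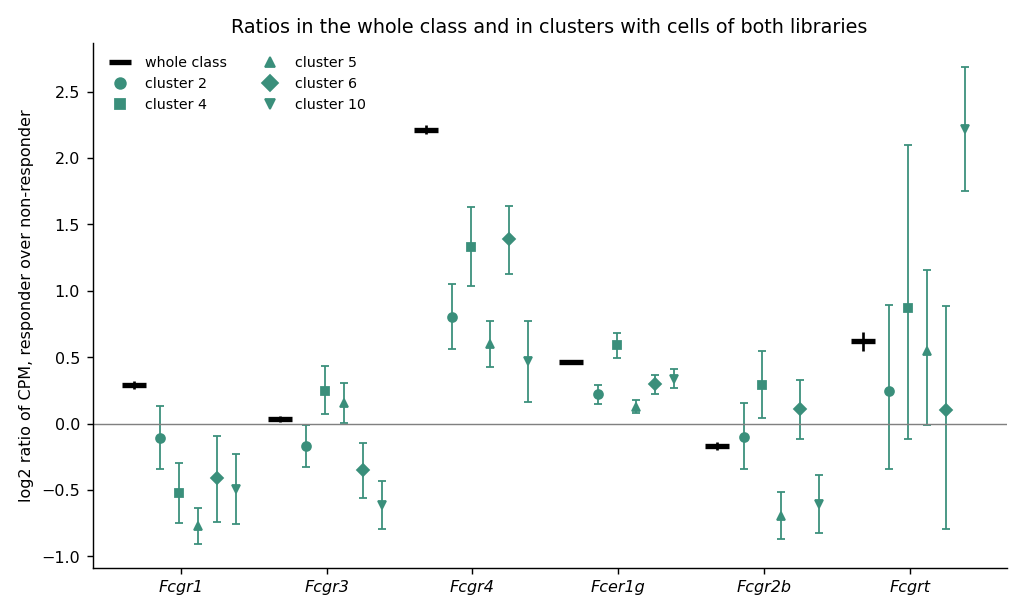
Log2 ratio of CPM, responder over non-responder, of each member in the whole monocyte/macrophage-like class (black bars) and in the 5 clusters with at least 20 cells of each library (green symbols), with exact 95% intervals for counting error. Fcgr4 lies above 0 throughout, and Fcgr1 lies above 0 in the class and below 0 in every cluster.

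Fcgrt differed most in cluster 10. It was at 48.2 CPM in 188 non-responder cells and 224 CPM in 52 responder cells there, a log2 ratio of 2.22 [1.75-2.69], while in clusters 2, 4, 5 and 6 its intervals included 0. The cells of the libraries in cluster 10 also differed in S100a8, 869 CPM against 0, and in the macrophage gene C1qa, 2069 against 3910 CPM, and the part of these differences in the Fcgrt value was not tested. The 20 dendritic markers summed to 1153 and 1170 CPM there. Over the whole class Bst2 alone supplied 1017 of the 1094 CPM of these markers in the non-responder library. In the responder library it supplied 1148 of 1217 CPM. Single markers differed inside cluster 10. Ccl17 was at 200.4 and 53.3 CPM, Cd24a at 244 and 67.3 CPM and Cd209a at 17.9 and 28.0 CPM, with Flt3 and Zbtb46 at 0.618 CPM each in the non-responder cells and at 0 in the responder cells. Their part in the Fcgrt value was not tested either.

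Markers of cells that could carry Fc receptors of their own were read beside the class. Fcgr4 is also known from neutrophils and from non-classical monocytes. The 8 neutrophil markers summed to 121 CPM in the non-responder and 29.3 CPM in the responder library, with Camp at 0 in the first and Retnlg at 0 in the second. S100a8 and S100a9 made up most of the first sum, at 60.2 and 31.5 CPM against 1.35 and 0.0233 CPM in the responder library. Csf3r went the other way, from 15.0 to 26.7 CPM, and Ly6g, which defines neutrophils, was at 0.681 and 0.373 CPM. The part of neutrophil RNA in the Fcgr4 values was not tested. The non-classical monocyte genes Treml4, Ear2 and Ace were at 8.48, 2.25 and 1.09 CPM in the non-responder and 16.9, 2.12 and 0.047 CPM in the responder library. The 6 B cell markers in the files summed to 23.7 and 64.7 CPM. Nearly all of that was Cd79b at 20.5 and 62.5 CPM, and Pax5 was at 0 in both libraries. Clusters 2 and 3 had Cd79b among their 10 leading genes and no macrophage or monocyte marker there. Without them the log2 ratio of the balance in the class was 0.79.

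Dendritic-like cells, in cluster 13, led with Ccl17, Ccr7 and Ccl22. They numbered 76 in the non-responder and 11 in the responder library. In the non-responder library Fcgr1 was at 163 CPM [135-195], Fcgr3 at 338 CPM [297-382] and Fcgr4 at 129 CPM [104.7-158], and these levels were 31.0%, 32.5% and 51.2% of those in monocyte/macrophage-like cells. Fcer1g stood at 33.3% of the macrophage level and Fcgr2b at 46.9%. The macrophage genes C1qa, C1qb and C1qc were at 17.2%, 17.1% and 15.2% in the same cells, below the share of every receptor gene. Of the members, 4 of 6 were 2-fold or more lower than in the macrophage-like class, and of all 9885 genes measured in that comparison 15.8% were.

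Fcgrt was the exception. It was at 124 CPM [99.8-152] in the dendritic-like cells of the non-responder library, 166% of the macrophage level, and at 161 CPM [88.0-270.0] in those of the responder library, 141%. Among the named cell types, each taken as a whole, it was highest in dendritic-like cells in both libraries. With 11 responder cells the interval there included the 114 CPM of the macrophage-like class. The 52 responder cells of the monocyte-like cluster 10 had a higher Fcgrt level than these, 224 CPM [178-279], and the intervals overlapped.

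The balance of the dendritic-like cells was 2.49 [2.10-2.96] in the non-responder library, near the 2.48 of monocyte-like cells and below the 3.37 of the class. In the responder library 34 activating and 20 Fcgr2b UMIs gave 1.70 [0.951-3.12]. The order of the libraries depended on the clustering, which also changed how many cells the class held. At resolution 0.5 the balance was 2.45 in 211 non-responder and 2.80 in 58 responder cells. With 1000 variable genes it was 2.18 in 99 non-responder and 2.26 in 39 responder cells. The main clustering had 76 and 11, so these values are not of the same cells. In the main clustering Fcgr2b stood at 48.0% of the macrophage level in the responder library, close to the 46.9% of the non-responder library. Fcgr1, Fcgr3 and Fcgr4 stood at 16.1%, 14.004% and 11.8% in those responder cells and C1qa at 4.97%. The Fcgr4 level of dendritic-like cells was 138 CPM [71.3-241] in the responder library, against 129 in the non-responder library, and these intervals overlapped. Their log2 ratio was 0.09 [-0.91 to 0.96], an interval below the 2.21 of the macrophage-like class.

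NK cell-like cells, in subcluster L5, numbered 20 in the non-responder and 4 in the responder library, and led with granzymes and Xcl1. In the non-responder library Fcer1g was at 3492 CPM [3265-3730], 62.4% of the macrophage level, and every one of the 20 cells had a UMI of it. Fcgr3 was at 99.2 CPM [64.2-146], from 25 UMIs, 9.53% of the macrophage level. C1qa, C1qb and C1qc were at 1.35% to 1.79% in those cells. Fcgr1, Fcgr4 and Fcgr2b had 1, 2 and 3 UMIs there, 0.755%, 3.15% and 2.21% of the macrophage level, which is near that of C1q. Fcgrt had 0 UMIs, which allows a level of up to 11.9 CPM, that of 3 UMIs.

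The balance of these NK cell-like cells, 28 activating UMIs to 3 of Fcgr2b, was 9.33 [2.88-48.0], and 89.3% of the activating UMIs were of Fcgr3. In the 4 responder cells there were 63 UMIs of Fcer1g, 3437 CPM [2641-4397], and 5 activating UMIs to 0 of Fcgr2b, too few for a ratio. Of those 5, Fcgr4 supplied 3 and Fcgr3 2. The Fcer1g levels of the libraries did not differ by more than counting error in NK cell-like cells, a log2 ratio of -0.02 [-0.42 to 0.35], while in the macrophage-like class the ratio was 0.46.

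T cell-like and fibroblast-like cells gave the background. In T cell-like cells of the non-responder library the members stood at 1.17% (Fcgr4) to 11.9% (Fcgrt, 3 UMIs) of the macrophage level, with C1qa at 2.34%. In the responder library they stood at 4.30% (Fcgr3) to 9.44% (Fcgrt), with C1qa at 5.40%. Fibroblast-like cells, which the CD45 sort should have removed, had 3.75 and 9.06 CPM of Ptprc. They carried 2.14% of the macrophage Fcgr1 and 1.49% of the macrophage Fcgr4 in the non-responder library, and 5.43% and 4.32% in the responder library. Their Fcgrt level was 20.1% and 22.6% of that of macrophages, from 12 and 20 UMIs. C1qa stood at 1.82% and 3.38% in the same cells, so they give no background for Fcgrt.

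Other genes of the pathway were read from lists of known function in the monocyte/macrophage-like class, where 3.46% of all genes measured were 2-fold or more higher in the responder library and 4.39% lower. Of the 15 kinases and adaptors of ITAM signalling, 0 were past 2-fold and the median log2 ratio was 0.14. Lat2, an adaptor, was at 339 CPM in the non-responder and 301 CPM in the responder library. Syk, chosen for its place downstream of the gamma chain after its values were seen, was at 30.5 and 36.7 CPM. Of the 10 genes of inhibitory signalling, Dok2, an adaptor that restrains Ras signalling, was past 2-fold, at 51.8 and 25.4 CPM. Inpp5d, which encodes SHIP1 and was also chosen after its values were seen, was at 85.7 and 95.9 CPM. The median of that list was 0.23.

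Receptors with the same kinds of motif were read against the same shares. Of 12 measured ITIM receptors other than Fcgr2b, 0 were 2-fold higher and 1 was 2-fold lower, Cd33, a sialic acid receptor, at 108 CPM in the non-responder and 43.3 CPM in the responder library. Clec12a, chosen after its values were seen, lay just inside 2-fold at 185 and 361 CPM. The median of that list was 0.37. Of 11 measured ITAM-coupled receptors and adaptors, 3 were 2-fold lower in the responder library and 0 higher, where 4.39% of all genes were lower and 3.46% higher. Clec4e, which encodes the C-type lectin Mincle, was at 84.9 and 24.5 CPM, Clec4d at 132 and 62.9 CPM, and Cd300lb at 18.0 and 8.63 CPM. The median of that list was -0.64.

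Among 13 genes of the phagocytic actin machinery, 0 were past 2-fold and the median was -0.15. Subunits of the Arp2/3 complex had the highest levels, Arpc1b at 1680.1 and 1549.6 CPM and Arpc2 at 1246 and 1124 CPM. Of 13 other Fc receptor genes, 5 were measured, of which 1 was 2-fold higher and 2 were lower in the responder library, against 3.46% and 4.39% of all genes. Fcrls, an Fc receptor-like gene known from microglia, was at 734 CPM in the non-responder and 91.1 CPM in the responder library. The other 2 were at low levels, Fcrl1 at 1.81 and 0.746 CPM and Fcrl5 at 0.238 and 3.195 CPM.

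The genes whose pattern was most like that of each member were taken over 26 sums of a cluster and a library, among 4365 genes, with Pearson's r of log2(CPM + 10) as a description. For Fcgr4 they were Tgm2, Aif1 and Tmem51 (r of 0.96, 0.95 and 0.95). For Fcgr1 they were Ctss, Ly86 and Tgfbi (0.98, 0.97 and 0.97), and for Fcgr3 Sirpb1c, Slc15a3 and Sirpa (0.98, 0.97 and 0.97). Fcgr2b was closest to Pilra, Sirpb1c and Alox5ap (0.99, 0.97 and 0.97), of which Pilra is itself a listed ITIM receptor.

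Fcer1g was closest to Tyrobp, the other ITAM adaptor of myeloid and NK cells, with an r of 0.98, and Ncf1 was also among its closest genes (0.94). Fcgrt was closest to Spi1 (0.92), and Tep1 was also among its closest genes (0.91). The sums included T cell-like, NK cell-like and fibroblast-like cells, which lack most of these genes. Within the 8 clusters of the macrophage-like class in each library, r was lower for many pairs: that of Fcer1g with Tyrobp was -0.13 and 0.43 in the non-responder and responder library, and that of Fcgr4 with Tgm2 was -0.035 and 0.92. That of Fcgr2b with Pilra was 0.75 and 0.88.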

How the data were processed

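Per the labels' protocols, cells were barcoded in droplets by the 3' v3 chemistry of 10x Genomics Chromium. The submitters' processing notes name Cell Ranger 1.1.0, mm10 and GRCm38. The authors deposited a filtered matrix of UMI counts per gene and barcode for each library, and no normalization was applied to them. The annotation release and the cell calling rule are not given in the sources used here.

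Cells needed 500 genes and at most 10% mitochondrial UMIs, which 6941 of 7005 barcodes met. Scrublet marked 2 barcodes, so doublets were in effect not removed. Clustering in scanpy 1.11.5 used log values of counts per 10000 (2000 variable genes, 30 components, 15 neighbours, Leiden resolution 1.0), both libraries together and without the members. Clusters with T cell or NK markers were clustered again (prefix L).

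Class rules were chosen with the data in view. Markers were counted as present at 50 CPM with a UMI in at least 10% of a cluster's cells. T cell-like and NK cell-like clusters needed 50% of those markers, and monocyte/macrophage-like clusters 75% of the macrophage markers. Clusters meeting the T cell and the macrophage limit were called mixed and kept out. Dendritic-like and fibroblast-like clusters needed 3 markers among their 10 leading genes, and dividing ones 3 S or G2/M markers. Clusters with 50% of the monocyte markers were called monocyte-like. Cluster 14, of few UMIs, stayed unnamed.

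Counts were summed per class and library and scaled to CPM with exact Poisson intervals. Log2 ratios have conditional exact binomial intervals, shares exact Clopper-Pearson intervals, balances the interval of the activating share and the ratio of 2 balances a large-sample interval, all at 95%. A gene was measured at 50 or more UMIs in the libraries together, and a value past 2-fold counted as different. Poisson counts were also simulated from a profile pooled over both libraries, for the 10854 genes of the responder against non-responder comparison. There 100% of 200 genes changed by a log2 ratio of 2 were recovered past 2-fold, and 0.0751% of the unchanged genes were past it. The simulation held counting error only. It held no differences between animals, libraries or cell mixtures, so these rates are not error rates for the comparison of the libraries.

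All members are named, and from each list the genes past 2-fold (at most 4) or else the 2 with the highest CPM. A few genes that this rule or the likeness to a member would name are not reported here. The members and lists were chosen with earlier results of these data known, so their counts are descriptions. 1 of the 85 listed genes (Lilrb4) had no entry in the files. TMM factors came from edgeR 4.0.16. Bulk tumour-cell RNA was not analysed here.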

Additional observations from a re-analysis of the deposited data

How the results depend on the processing

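The balance log2 ratio of the monocyte/macrophage-like class (0.83) was above 0 under all 21 alternatives. Of these, TMM scaling cancels in a ratio taken within a library, so it could not move the value. The log2 ratio was 0.21 with the 5 clusters of at least 20 cells in each library weighted equally and 0.21 with Fcgr3 alone over Fcgr2b. It was 0.96 without Fcgr1 in the sum and 1.02 with the geometric mean of the activating receptors. The equal weighting of shared clusters uses few cells of 1 library in each cluster. The 3 alternatives added after seeing the data gave 0.79 without clusters 2 and 3, 0.93 without the monocyte-like clusters and, within counting error of the main value, the 3 states weighted equally. Where a change has no cause named by its construction, the cause was not tested.

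Of the members, Fcgr4, Fcer1g and Fcgrt were higher and Fcgr2b lower in the responder library under all 18 alternatives. Fcgr1 reversed to -0.46 with shared clusters weighted equally. Fcgr3, near 0 from the start, reversed to -0.14 with shared clusters weighted equally, to -0.00043 without clusters 2 and 3 and to -0.039 without the monocyte-like clusters. The members past 2-fold were 1 in all but the shared clusters weighted equally, with 0.

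Values outside the counting interval of the main value were as follows. TMM scaling gave 0.41 for Fcgr1, 0.15 for Fcgr3, 2.33 for Fcgr4, 0.58 for Fcer1g, -0.053 for Fcgr2b and 0.74 for Fcgrt. Shared clusters weighted equally gave 0.92 for Fcgr4, 0.31 for Fcer1g and 0.80 for Fcgrt. For Fcgr4 the mean over cells gave 2.13, thinned cells 2.12, leaving out dividing clusters 2.14, cells of 5000 to 20000 UMIs 2.13 and states weighted equally 2.27. For Fcer1g, leaving out dividing clusters gave 0.45, cells of 5000 to 20000 UMIs 0.44, resolution 0.5 0.45, leaving out clusters 2 and 3 0.44 and states weighted equally 0.53. For Fcgr1, leaving out clusters 2 and 3 gave 0.33, leaving out monocyte-like clusters 0.33 and states weighted equally 0.21. For Fcgr2b, thinned cells gave -0.22, cells of 5000 to 20000 UMIs -0.23, leaving out clusters 2 and 3 -0.13 and leaving out monocyte-like clusters -0.28. For Fcgr3, cells of 5000 to 20000 UMIs gave 0.0065 and states weighted equally 0.086. For Fcgrt, leaving out clusters 2 and 3 gave 0.52.

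Genes 2-fold or more higher in the responder library (376) numbered 235 with a pseudocount of 1 CPM and 611 at a minimum of 10 counts. Those lower (476) numbered 295 in thinned cells, 276 with the pseudocount, and, as the minimum sets how many genes of low counts are measured, 895 at 10 and 264 at 200 counts. The dendritic-like balance was 2.18 to 2.69 in the non-responder library (main 2.49) over 7 other settings of the cell filters or the clustering. The class held 211 cells of that library at resolution 0.5 and 99 with 1000 variable genes, against 76 in the main clustering. In the responder library (main 1.70) the balance was 2.80 at resolution 0.5, where the class held 58 cells. With 1000 variable genes it was 2.26, in 39 cells. No value could be given with each library clustered on its own, which left the responder library no dendritic-like cells. No paired analysis was possible because each group holds 1 library.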
